A study of Mus musculus with 82 samples.

Results

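The response of ovalbumin-specific CD4 T cells to pGal-OVA, a synthetically glycosylated form of ovalbumin (OVA), was compared between naive and primed cells. For every gene the change from saline to pGal-OVA (here pGal) was taken within each of these states, and the change in naive cells was subtracted from the change in primed cells. The comparison used 28 of the 82 libraries of the series. OT-II cells are transgenic CD4 T cells that recognize OVA, and OT-I cells are their CD8 counterpart. Both were transferred together into wild-type C57BL/6 mice, so that all 4 groups carried the same 2 transferred populations, and 4 days after the treatment OT-II cells were sorted from the spleen and lymph nodes, combined. The naive groups come from the prophylactic experiment, in which saline or pGal followed the transfer by 1 day. They hold 5 saline and 5 pGal libraries in 2 batches, each library from 3 pooled mice sorted into Trizol. The primed groups come from the therapeutic experiment, in which the mice were immunized with OVA in complete Freund's adjuvant a day after the transfer and given saline or pGal a month later. They hold 8 saline and 10 pGal libraries, each from 1 mouse, sorted into buffer and snap frozen. The series' design text gives 5 µg of pGal, whereas the treatment protocol gives the molar equivalent of the antigen, so the amount is not settled by the labels. Age and sex of the mice are not used here.

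A naive CD4 T cell that meets its antigen without inflammation typically engages its receptor, divides and then becomes unresponsive. Such anergic cells carry inhibitory receptors such as CTLA-4 and surface proteins such as folate receptor 4 (gene Izumo1r) and CD73 (gene Nt5e). A cell primed with adjuvant has already gone through activation and has become an effector, follicular helper or memory cell, and its genes start from other levels. Glycosylation of an antigen directs it to uptake receptors on antigen-presenting cells, which is the basis of its use to induce tolerance.

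Prophylactic libraries were taken as labelled, and therapeutic libraries were taken where the count of Cd4 was above that of Cd8a, whatever the label. The latter gave 14 libraries labelled OT-II and 4 labelled OT-I (pGal 5 and 7, saline 3 and 6). Another 3 therapeutic libraries labelled OT-II (pGal 5 and 7, saline 3) held more Cd8a than Cd4 and were not members. No therapeutic library stood near the limit. The lowest ratio of Cd4 to Cd8a among the therapeutic members was 20.7, from counts of 6449 and 311 in the library labelled OT-II pGal 9. The highest among the other therapeutic libraries was 0.00444, from counts of 178 and 40124 in the library labelled OT-II saline 3. Among the naive libraries, taken as labelled, batch 1 pGal 3 held the most Cd8a, with a count of 4304 beside 25172 for Cd4. Cd4 and Cd8a chose the libraries and are not tested. The other T cell markers were present throughout: Cd3e, a subunit of the T cell receptor complex, ranged from 248 to 1215 CPM (a gene's count relative to the scaled total of its library), and Zbtb7b, the transcription factor of the CD4 lineage, from 46.6 to 136 CPM. Priming also cannot be told apart from everything else in which the experiments differ (the number of mice per library, the way of sorting, the time since transfer). Levels in naive and primed cells are therefore set side by side with no test. The difference of responses compares changes that were each measured within an experiment, which takes out differences of level only. A difference in the size of the response cannot be assigned to priming rather than to the other differences between the experiments. The labels do not say more about how cultures or animals were shared between libraries than the numbers of mice given above.

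Totals ran from 21150702 to 62252836 estimated counts per library. The naive libraries varied less than the primed ones. Over 9193 genes of at least 10 CPM, the median SD of log2 CPM within a group was 0.26 for naive saline, 0.24 for naive pGal, 0.47 for primed saline and 0.50 for primed pGal. In 1 naive library, batch 1 pGal 3, 17 B cell markers summed to 13220 CPM and 17 myeloid markers to 3772 CPM, with Cd79a at 1021 CPM and Lyz2 at 1575 CPM. This library also held Cd8a at 84.9 CPM and Cd8b1 at 183 CPM, each the highest of the naive libraries. Batch 2 saline 1 followed with 2606 CPM of B cell markers, the other naive libraries had 191 to 685 CPM and the primed ones 509 to 2466 CPM. Mitochondrially encoded genes summed to 21240 to 86400 CPM in 4 primed libraries (labelled OT-I pGal 5, OT-II pGal 9, OT-II saline 1 and OT-II saline 7) and to at most 14400 CPM in the other primed ones. Naive libraries had 7011 to 22890 CPM, the highest in batch 2 pGal 2. These 6 libraries and the 4 labelled OT-I, which have 1 in common, are called the 9 libraries in doubt.

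Of 14876 genes tested, the response differed between primed and naive cells for 92 (0.618%) at a Benjamini-Hochberg adjusted p under 0.05 in edgeR's quasi-likelihood test. The change was lower in primed cells for 88 of them (0.592%) and higher for 4 (0.0269%). Within naive cells pGal changed 366 genes (2.46%), raising 292 (1.96%) and lowering 74 (0.497%). Within primed cells it changed 42 (0.282%), raising 19 (0.128%) and lowering 23 (0.155%). Almost all of the lower differences were genes that rose in naive cells: 87 of the 88 were called higher there, and 3 of them (Izumo1r, P2rx7 and Tbc1d4) were also called higher in primed cells. The remaining 1, Etv6, an ETS family repressor named here after its values were seen, was called in neither response. Without the 4 libraries labelled OT-I the difference was called for 99 genes, 79 of them shared. With the libraries taken as labelled OT-II throughout, it was called for 48 genes, 39 of them shared, and no gene was called in the primed response by edgeR (1015 genes had an unadjusted p under 0.05). Within batch 1 alone 40 differences were called (4 higher and 36 lower) and within batch 2 alone 34, all lower, and the 26 named genes with a called difference kept their sign in each. Of these 26, 14 were called within batch 1 alone, where Capg, Gm3591, Gm3252, Lmo4, Rgs1, Spry1, Izumo1r, Tnfsf14, Gm8108, Top2a, Il2 and Ebi3 were not. Within batch 2 alone 11 were called, and Gm3739, Irf4, Gm3591, Gm3252, Lmo4, Rgs1, Spry1, Izumo1r, Tnfsf14, Sostdc1, Top2a, Cxcr5, Tubb2a, Il2 and Ebi3 were not. Without the 9 libraries in doubt 19 of the 26 kept the call, and Capg, Gm3252, Tnfsf14, Gm8108, Top2a, Il2 and Ebi3 lost it. Of the same 26, 18 kept the call whichever single library was left out, and the libraries that end it for the other 8, or their number, are given with each gene. The counts of the responses themselves moved more. Leaving out batch 1 saline 2 or batch 2 saline 2 gave 236 and 235 naive calls. In primed cells 67 genes were called without the library labelled OT-I pGal 7, 26 without OT-II pGal 4, 27 without OT-I saline 6 and 21 without all 4 libraries labelled OT-I. Of the 42 genes called in primed cells, 42 kept their direction without those 4 and 14 kept the call: Vps37b, Izumo1r, Nt5e, Tuba4a, Srm, P2rx7, Cers4, Tbc1d4, Art2b, Dnajb1, Hmgn1, Klf2, Rrp9 and Hspe1. The other 28 had edgeR adjusted p from 0.0515 to 0.187. Without the 9 libraries in doubt 10 of the 42 kept the call: Vps37b, Izumo1r, Tuba4a, Srm, P2rx7, Hspa8, Hmgn1, Tubb4b, Nolc1 and Hspe1. Without the 2 naive libraries rich in B cell transcripts the naive calls of Rgs1, Ebi3, Mki67, Dntt, Pdlim4 and Pdcd1 were lost. The fit of all libraries uses 1 estimate of the spread per gene for both experiments, although the naive libraries varied less. With each experiment fitted alone, naive cells had 847 genes higher and 832 lower, and primed cells 16 and 3. Since each library holds RNA of many cells, a lower level can come from fewer cells of a type or from less RNA per cell, and these cannot be told apart.

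**Figure D1:**
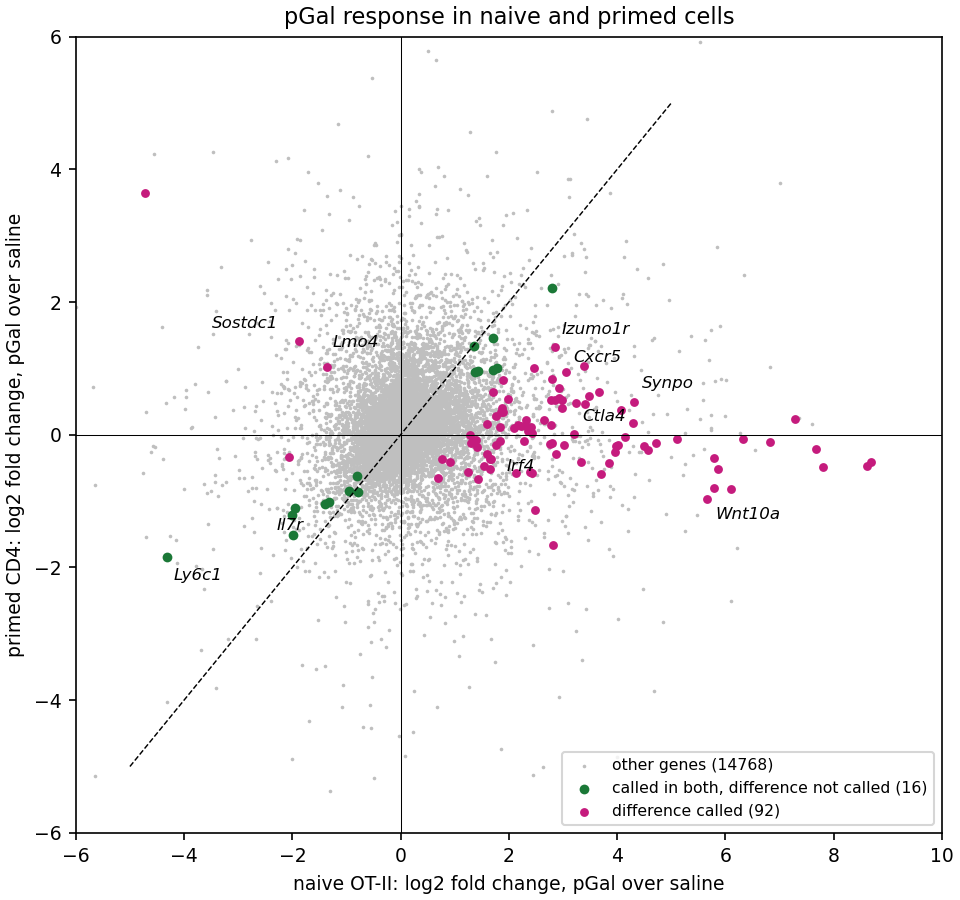
Log2 fold change of pGal over saline in naive OT-II cells (horizontal axis) and in primed CD4 cells (vertical axis) for each gene tested; the dashed line marks equal responses, pink points are the 92 genes whose difference was called, green points the 16 genes called in both responses without a called difference, and 7 genes lie outside the frame. Most pink points lie along the horizontal axis, far to the right, at primed values near 0.

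For the wider set of 292 genes raised in naive cells, the primed response was above 0 in 225 (77.1%, against 53.6% of all genes tested), with a median log2 fold change of 0.29, and 10 were called in primed cells. Of the 74 genes lowered in naive cells, the primed response was below 0 in 68, with a median of -0.49, and 9 were called. The naive fit and the primed fit share no libraries, though they share one estimate of the spread. Over all 14876 genes, which are not independent replicates, the correlation of the naive and primed log2 fold changes was 0.11 (Pearson) and 0.21 (Spearman).

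Wnt10a, a secreted Wnt ligand (GRCm38, chr1:74791516-74804179), had the smallest p of the difference. In naive cells it was low after saline (1.09, 0.827, 1.15, 3.20 and 0.858 CPM in the 5 libraries) and 26.5 to 150 CPM after pGal (56.0, 49.3, 26.5, 150 and 111 CPM). In primed cells it was already at 84.5 ± 45.2 CPM after saline (SD, n = 8; lowest 25.4, median 86.9, highest 144) and at 43.4 ± 19.7 CPM after pGal (SD, n = 10; lowest 16.4, median 39.8, highest 85.3). The naive groups did not overlap, as for 739 genes in this direction (4.97% of those tested), and the primed groups did. The log2 difference of responses was -6.62 ± 0.59 (SE; edgeR adjusted p = 8.39e-08), made up of a naive rise of 5.66 and a primed change of -0.96 that was not called (edgeR adjusted p = 0.243). Within batch 1 alone it was -6.39 and within batch 2 alone -6.96, both called.

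**Figure D2:**
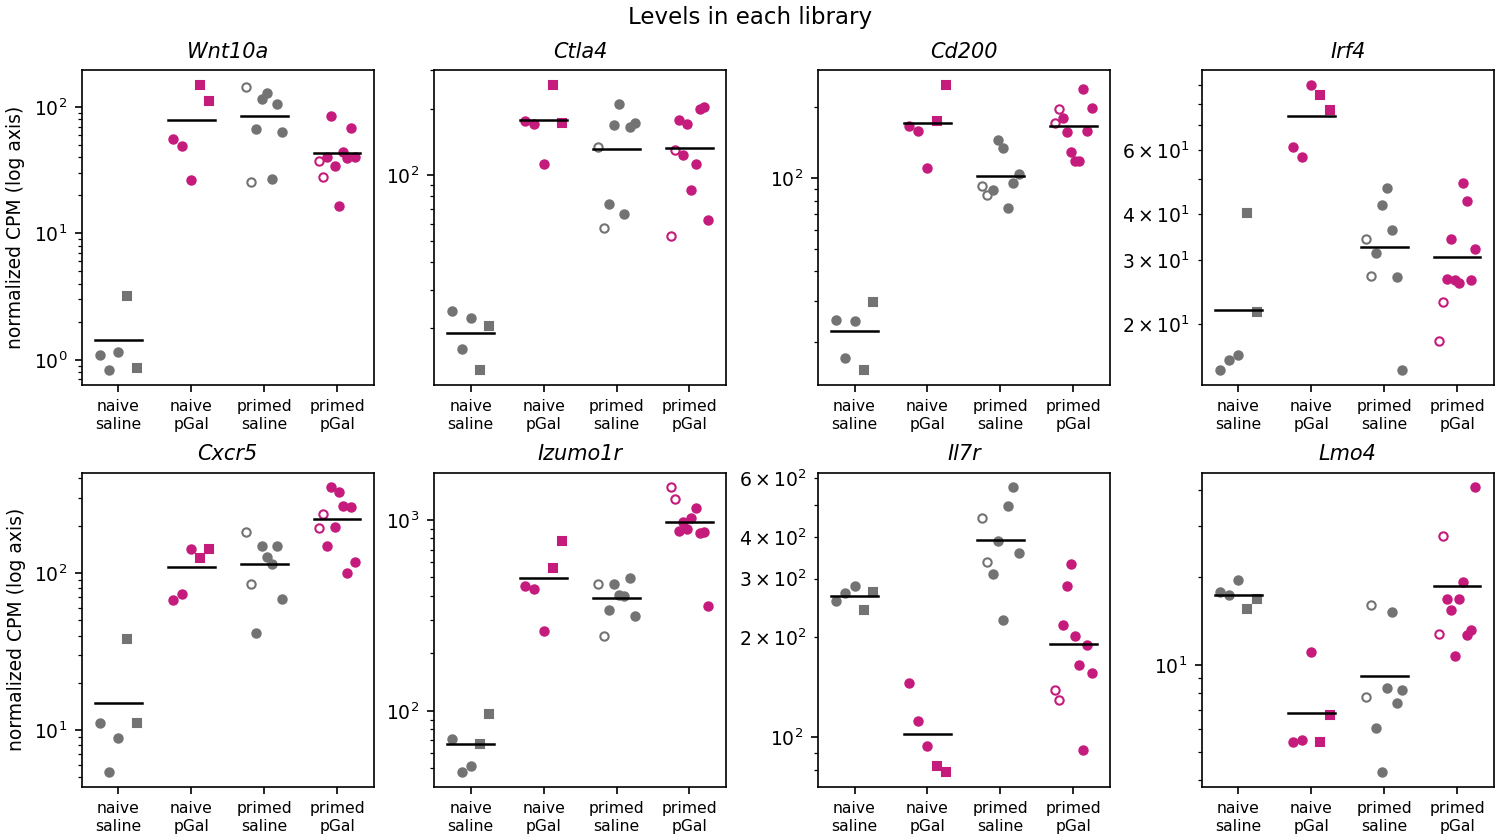
Normalized CPM of 8 genes in each of the 28 libraries, on log axes, with the group mean as a bar; circles are batch 1 and therapeutic libraries, squares batch 2, and open circles the 4 libraries labelled OT-I. All 8 genes separate completely between naive saline and naive pGal and overlap between primed saline and primed pGal. Over all genes tested, naive libraries separated upwards for 4.97% and downwards for 4.6%. Primed libraries did so for 0.0538% and 0.0336%, so that overlap in primed cells holds for nearly every gene. Il7r falls in both states, and the Lmo4 mean after pGal is lower in naive and higher in primed cells.

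Inhibitory receptors and the factors of exhaustion formed a list of 20 genes, all tested. Pdcd1, Ctla4, Lag3, Btla, Cd200, Tox and Tox2 rose in naive cells (7 of 20) and none was called in primed cells. The median log2 fold change was 0.86 in naive and 0.33 in primed cells, against 0.03 over all genes in both. The difference was called for 2 of the 20, Ctla4 and Cd200, both lower in primed cells. Over all genes tested 1.96% were called higher in naive cells, 0.128% higher in primed cells and 0.592% lower in the difference. Ctla4, the receptor that competes with CD28 for its ligands, lay at 23.8, 16.0, 22.3, 12.9 and 20.5 CPM in naive saline and at 176, 170, 112, 259 and 172 CPM in naive pGal libraries. In primed cells saline and pGal gave overlapping ranges, 57.3 to 211 CPM (median 149) and 52.5 to 205 CPM (median 127). The difference was -3.19 ± 0.46 (SE; edgeR adjusted p = 1.43e-04), with a primed change of 0.01. Cd200, a ligand that restrains myeloid cells, rose from 22.2 ± 6.0 to 172 ± 50.3 CPM in naive cells (SD, n = 5 each), by 2.93 on the log2 scale. In primed cells it went from 102 ± 24.7 (n = 8) to 167 ± 39.2 CPM (n = 10), by 0.71, which was just above the threshold (edgeR adjusted p = 0.0654). The Cd200 difference was -2.22 ± 0.29 (SE; edgeR adjusted p = 3.62e-05). The Ctla4 difference was called in every alternative fit, and that of Cd200 in all but the fit with the therapeutic libraries taken as labelled OT-II (edgeR adjusted p = 0.0688).

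The difference was not called for the other 18 members. Pdcd1, which encodes PD-1, went from 19.8 to 67.3 CPM in naive and from 82.4 to 166 CPM in primed cells, with log2 fold changes of 1.67 and 1.01 and a difference of -0.66 ± 0.49 (SE; edgeR adjusted p = 1.0). Its naive call was lost without batch 1 saline 2, batch 1 saline 3 or batch 2 saline 1 (1.44 to 1.62). Tox, a regulator of exhaustion, had 0.87 and 0.58, with a difference of -0.29 ± 0.22. Tox2 had 2.91 and 1.49, with primed levels of 68.8 CPM after saline and 193 CPM after pGal (edgeR adjusted p in primed cells = 0.0739). Lag3, a receptor for MHC class II, had 2.54 and 0.41 at mean levels of 0.893 to 10.2 CPM. Its difference of -2.13 ± 0.75 was not called, though it was without the 9 libraries in doubt (-2.32; edgeR adjusted p = 0.0433), and its naive call was lost without any 1 of 5 naive libraries (2.43 to 2.60). Tigit, an inhibitory receptor for ligands of the nectin family, was called in neither state. Its means were 3.28 and 1.28 CPM in naive cells, 13.1 and 30.9 CPM in primed cells, with a difference of 2.62 ± 0.67 (SE; edgeR adjusted p = 0.0704). Without the 2 naive libraries rich in B cell transcripts the Tigit difference was 3.26 and passed the threshold, as it did without batch 1 pGal 3, batch 2 saline 1 or the library labelled OT-II pGal 10 alone (2.74 to 3.00).

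The promoter windows of 3 genes that stand for the 3 patterns in the data are shown, from 250 bases before to 50 after the start, from RefSeq on GRCm38.p6: Ctla4 (chr1:60908775-60909074, plus strand), which responded in naive cells only by the calls; Izumo1r (chr9:14903718-14904017, minus strand), which responded in both and less in primed cells; and Il7r (chr15:9529827-9530126, minus strand), which fell in both with no called difference. Capitals mark the core motif bound by NFAT, the factor that the T cell receptor activates through calcium, searched as GGAAA on both strands, so that TTTCC marks a match on the other strand.
Ctla4: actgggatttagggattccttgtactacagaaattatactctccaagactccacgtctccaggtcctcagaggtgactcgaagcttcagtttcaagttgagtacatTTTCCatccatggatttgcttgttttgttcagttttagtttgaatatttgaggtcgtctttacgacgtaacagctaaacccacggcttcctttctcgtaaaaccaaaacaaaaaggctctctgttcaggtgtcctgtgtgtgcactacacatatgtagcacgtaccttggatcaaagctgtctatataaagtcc
Izumo1r: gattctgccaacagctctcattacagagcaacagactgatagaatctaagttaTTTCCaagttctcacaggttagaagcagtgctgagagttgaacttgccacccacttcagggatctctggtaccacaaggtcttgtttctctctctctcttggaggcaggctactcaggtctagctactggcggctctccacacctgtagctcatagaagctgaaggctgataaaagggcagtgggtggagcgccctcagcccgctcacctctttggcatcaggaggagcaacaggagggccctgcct
Il7r: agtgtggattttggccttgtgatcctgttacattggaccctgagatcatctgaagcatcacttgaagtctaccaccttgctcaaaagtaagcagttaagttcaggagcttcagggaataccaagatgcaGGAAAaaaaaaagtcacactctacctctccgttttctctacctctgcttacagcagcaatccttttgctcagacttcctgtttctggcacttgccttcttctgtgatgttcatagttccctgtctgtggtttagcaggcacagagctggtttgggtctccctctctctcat
Each window holds 1 match, and 61.3% of the 32851 promoters in the table hold at least 1. No match to AP-1 (TGANTCA) or EGR (GCGNGGGCG) is in them. Of the 67 genes with a lower difference outside a cluster on chromosome 14 described below, 46 had a promoter in the table. Of these 69.6% held the NFAT core, 13% AP-1 (7.81% of all promoters) and 15.2% EGR (5.55%), as a description with no test. The Wnt10a promoter is not used here.

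Of 18 genes linked to anergy, 6 rose in naive cells, among them Izumo1r, Nrp1, Dgkz, Rgs1 and Ikzf2, and 2 in primed cells (Izumo1r and Nt5e). The shares over all genes tested were 1.96% and 0.128%. The difference was called for 3, all lower in primed cells, against 0.592% of all genes. Izumo1r, the folate receptor 4 of regulatory and anergic cells, is the member that rose in both. It lay at 71.2, 47.6, 51.4, 67.5 and 96.7 CPM in naive saline and at 451, 435, 261, 559 and 775 CPM in naive pGal libraries. It rose in primed cells from a median of 402 CPM (246 to 496) to a median of 936 CPM (353 to 1492), the pGal libraries overlapping the saline ones in the library labelled OT-II pGal 9 alone. The rise was 2.86 in naive and 1.32 in primed cells on the log2 scale (edgeR adjusted p = 7.16e-08 and 0.00203), and the difference was -1.54 ± 0.32 (SE; edgeR adjusted p = 0.0123). Within batch 1 alone it was -1.43 and within batch 2 alone -1.69, neither called. Nt5e, the ecto-enzyme CD73, rose from 65.5 to 132 CPM in primed cells, by 1.01 (edgeR adjusted p = 0.00651). Its naive change, from 17.4 to 28.3 CPM, was 0.69 and was not called, and the difference of 0.33 ± 0.28 (SE) was not called either.

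Rgs1, which dampens chemokine receptor signalling, rose in naive cells from 29.3 to 83.0 CPM, whereas in primed cells it was 143 CPM after saline and 90.0 CPM after pGal. The difference was -2.09 ± 0.41 (SE; edgeR adjusted p = 0.00644). It was called in neither batch alone (-1.88 in batch 1 and -2.39 in batch 2), and its naive call was lost without batch 2 saline 1, batch 2 saline 2 or batch 2 pGal 1 (1.24 to 1.37). Nrp1, the semaphorin receptor neuropilin 1, rose from 29.2 to 95.6 CPM in naive cells and stood at 186 and 241 CPM in primed cells; its difference of -1.35 ± 0.44 was not called, though it was without the 9 libraries in doubt (-1.47; edgeR adjusted p = 0.0433).

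Of 24 early targets of the T cell receptor, 3 rose in naive cells (Irf4, Rel and Spry1), 1 fell (Cd40lg) and none was called in primed cells. The median was -0.21 in naive and -0.50 in primed cells. Over all genes tested 1.96% rose and 0.497% fell in naive cells by the calls. The difference was called for Irf4 and Spry1, both lower in primed cells, against 0.592% of all genes. Irf4, a transcription factor whose level follows receptor signal strength, lay at 15.0, 16.0, 16.5, 40.3 and 21.7 CPM in naive saline and at 61.2, 57.4, 90.5, 84.9 and 76.9 CPM in naive pGal libraries. In primed cells it was 32.6 ± 10.0 CPM after saline (SD, n = 8) and 30.5 ± 9.5 CPM after pGal (SD, n = 10). The primed saline libraries (15.0 to 47.3 CPM) all lay below the naive pGal ones. Its difference was -1.93 ± 0.35 (SE; edgeR adjusted p = 0.00207). The naive saline library at 40.3 CPM is batch 2 saline 1, the one with more B cell transcripts, and without it and batch 1 pGal 3 the difference was still called. Within batch 2 alone it was -1.48 and not called. Spry1, a feedback inhibitor of receptor tyrosine kinase and Ras signalling, rose from 5.03 to 39.4 CPM in naive cells and was 31.4 and 45.3 CPM in primed cells, with a difference of -2.45 ± 0.51 that was not called without batch 2 saline 2 (-2.27) nor within either batch alone. The immediate early genes gave no called change: Nr4a1 was 311 and 251 CPM in naive cells and 445 and 204 CPM in primed cells, and Egr2 was 16.0 and 34.2 CPM in naive and 29.7 and 36.5 CPM in primed cells.

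Of 15 follicular helper genes, 7 rose in naive cells (Cxcr5, Maf, Icos, Pdcd1, Cd200, Slamf6 and Tox2), 1 fell (Cd40lg) and 1 rose in primed cells (Maf). Over all genes tested 1.96% rose and 0.497% fell in naive cells, and 0.128% rose in primed cells, by the calls. The median of the list was 1.43 in naive and 0.71 in primed cells. Of its 15 primed values 14 were above 0, against 53.6% of all genes. Cxcr5, the receptor that brings cells to the follicle, lay at 11.1, 5.37, 8.90, 37.9 and 11.1 CPM in naive saline and at 67.0, 73.4, 142, 125 and 142 CPM in naive pGal libraries. Its primed level went from a median of 120 CPM (41.2 to 183) to 217 CPM (99.9 to 354). The difference was -2.12 ± 0.48 (SE; edgeR adjusted p = 0.0294). It was not called without the 4 libraries labelled OT-I (-2.06), within batch 2 alone (-1.50), or without 1 of 7 libraries: batch 1 pGal 3, batch 1 saline 1, 2 or 3, batch 2 saline 2, or those labelled OT-I saline 3 and OT-II saline 2 (-2.18 to -1.83). B cells also express Cxcr5, and without the 2 naive libraries rich in B cell transcripts the difference was -2.29 and called. Maf, a factor that drives Il21 and Il4, rose from 6.00 to 19.0 CPM in naive and from 56.1 to 110 CPM in primed cells, by 1.72 and 0.98, and its difference of -0.74 ± 0.35 was not called. The primed rise was not called without the 4 libraries labelled OT-I (0.94; edgeR adjusted p = 0.146). Bcl6, the master repressor of the follicular programme, changed by 0.64 and 0.73 (neither called), with a difference of 0.09 ± 0.35 whose sign varied between fits. Il21, the follicular cytokine, averaged 0.863 CPM in naive saline, 0.857 CPM in naive pGal, and 27.3 and 65.9 CPM in primed cells, with a primed change of 1.27 (edgeR adjusted p = 0.205).

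Of 17 regulatory T cell genes, 6 rose in naive cells and 1 in primed cells, against 1.96% and 0.128% of all genes tested. The difference was called for 4, all lower, against 0.592% of all genes: Ctla4 and Izumo1r, given above, with Capg and Ebi3. Capg, an actin-capping protein, rose from 62.8 to 203 CPM in naive cells and was 257 and 180 CPM in primed cells, with a difference of -2.17 ± 0.36 (SE; edgeR adjusted p = 0.00101) that was not called without all the libraries in doubt (-1.80). Ebi3, a subunit of interleukins 27 and 35, rose from 1.59 to 11.4 CPM in naive cells and was 17.5 and 14.3 CPM in primed cells, and its difference of -3.16 ± 0.76 was not called without the 4 libraries labelled OT-I (-2.99) nor without the 2 naive libraries rich in B cell transcripts (-2.71), nor without any 1 of 19 libraries (-3.29 to -2.84). Foxp3, the defining factor of regulatory T cells, stood at 19.4 and 25.6 CPM in naive and 21.4 and 18.7 CPM in primed cells, with no called change and a difference of -0.53 ± 0.63.

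Among 19 cytokine and chemokine genes tested, the difference was called for Il2 and Tnfsf14, both lower in primed cells, against 0.592% of all genes tested. Il2, the T cell growth factor, rose from 0.601 ± 0.555 to 5.56 ± 2.52 CPM in naive cells (SD, n = 5 each) and was 4.57 and 6.37 CPM in primed cells. Its difference of -2.76 ± 0.66 (SE; edgeR adjusted p = 0.0405) lost the call without the 4 libraries labelled OT-I (-2.87), without either of the other sets of libraries in doubt, and without any 1 of 18 single libraries (-2.91 to -2.51). Tnfsf14, the ligand LIGHT, rose from 2.24 to 10.5 CPM in naive cells and was 21.0 and 23.4 CPM in primed cells, with a difference of -2.01 ± 0.43, which lost the call without all the libraries in doubt (-2.30). Il4, the T helper 2 cytokine, showed the reverse distribution. It was 0.376 and 0.392 CPM in naive cells, and rose in primed cells from a median of 3.80 CPM (1.69 to 7.30) after saline to a median of 18.8 CPM (7.32 to 51.5) after pGal, with no overlap between the primed groups. Complete separation in that direction was found for 8 of the 14876 genes (0.0538%). The primed rise was 2.49 ± 0.50 (SE; edgeR adjusted p = 0.0187), and 2.17 without the 4 libraries labelled OT-I, which was not called (edgeR adjusted p = 0.14). The difference from naive cells, 2.30 ± 0.83, was not called (edgeR adjusted p = 0.42). Ifng, the T helper 1 cytokine, was 2.12 and 2.71 CPM in naive cells and 66.7 and 26.3 CPM in primed cells, with a primed change of -1.34 that was not called (edgeR adjusted p = 0.18) and a difference of -1.62 ± 0.69. None of the 17 T helper 1 genes and none of the 14 tested T helper 2 and T helper 17 genes had a called difference.

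Cell survival genes gave 3 called differences of 20, all lower in primed cells (0.592% of all genes tested were), among them Bcl2a1b and Bcl2a1d. Bcl2a1b and Bcl2a1d are near-identical copies of an anti-apoptotic BCL2 relative on chromosome 9, so the division of reads between them is uncertain. Bcl2a1b went from 18.2 to 78.3 CPM in naive cells and was 115 and 123 CPM in primed cells, with a difference of -1.99 ± 0.25 (SE; edgeR adjusted p = 2.91e-05). Bcl2a1d went from 5.34 to 29.2 CPM and was 50.4 and 51.1 CPM, with -2.40 ± 0.34. Outside the fixed lists, and named here after their values were seen, 2 inflammatory caspases that lie side by side on chromosome 9 did the same. Casp1, which processes interleukin 1, lay between 10.8 and 16.1 CPM in naive saline, 55.0 and 76.9 CPM in naive pGal, 85.4 and 151 CPM in primed saline and 84.9 and 163 CPM in primed pGal libraries, with a difference of -2.08 ± 0.23. Casp4 averaged 5.06, 35.9, 41.0 and 54.3 CPM in the same order, with a difference of -2.57 ± 0.41.

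Of 35 proliferation genes, Mki67 and Top2a rose in naive cells, none was called in primed cells, and 1 difference was called. Over all genes tested 1.96% rose in naive cells and 0.592% had a lower difference, by the calls. The median of the list was 1.18 in naive and -0.53 in primed cells. Only 5 of its 35 primed values were above 0, against 53.6% of all genes. Top2a, the topoisomerase of dividing cells, rose from 7.97 to 37.9 CPM in naive cells and was 34.4 and 37.8 CPM in primed cells, with a difference of -2.09 ± 0.48 (SE; edgeR adjusted p = 0.0294) that was not called without the 4 libraries labelled OT-I (-1.99), nor without batch 1 pGal 1, batch 1 saline 2 or 3, batch 2 saline 1, batch 2 pGal 1 or the library labelled OT-I saline 3 (-2.12 to -1.91). Mki67, a marker of cycling cells, gave -2.35 ± 0.68 and was not called (edgeR adjusted p = 0.161), though it was without batch 1 saline 1 (-2.98). Its naive call was lost without batch 1 saline 2 or 3 or batch 2 pGal 1 (2.14 to 2.26). B cell markers had a similar median, 1.78 in naive and -0.01 in primed cells with no member called, carried by the pGal library with 13220 CPM of them. Their part in the proliferation values was not tested. Without that library and batch 2 saline 1 the Top2a difference was -1.99 and not called. The median difference of the proliferation genes was then -1.04, against -1.72 with all libraries.

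**Figure D3:**
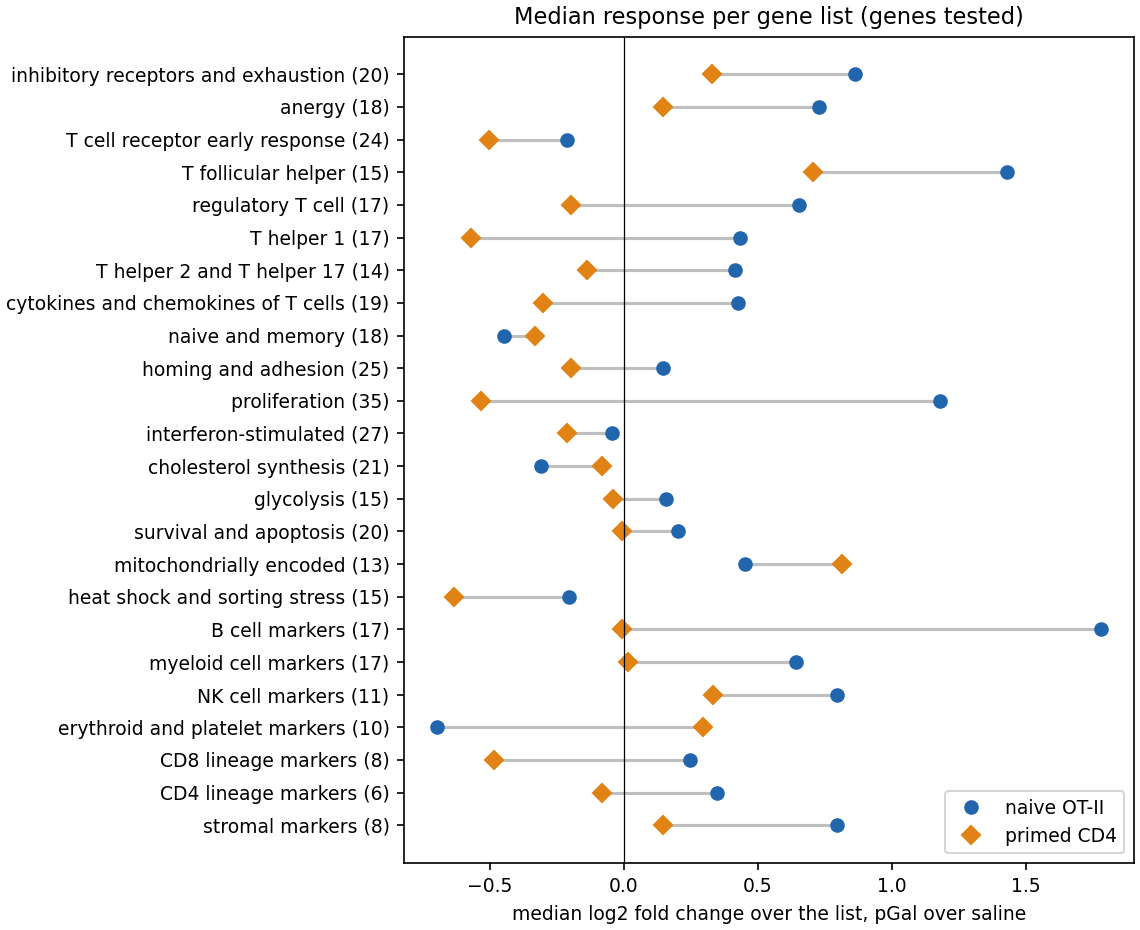
Median log2 fold change of pGal over saline over the genes of each list, in naive OT-II cells (blue circles) and primed CD4 cells (orange diamonds), with the number of genes tested in brackets. The gap between the states is widest for B cell markers (1.78 and -0.01) and proliferation (1.18 and -0.53), and narrow for naive and memory genes (-0.45 and -0.33).

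Further genes with a lower difference, outside the lists, included Synpo, an actin-binding protein, which went from 3.08 to 59.0 CPM in naive cells and was 73.1 and 103 CPM in primed cells (difference -3.81 ± 0.46; edgeR adjusted p = 1.86e-05). The following were named after their values were seen. Gpr55, a lipid-sensing receptor, averaged 1.08, 22.0, 9.47 and 10.7 CPM in naive saline, naive pGal, primed saline and primed pGal libraries, and Cd86, a costimulatory ligand, 10.2, 51.5, 17.1 and 17.8 CPM. Both were highest in naive pGal cells. Bhlhe40, a regulator of effector cytokines, averaged 9.81, 56.0, 308 and 140 CPM, and was highest in primed saline cells. P2rx7, the ATP-gated channel, averaged 14.6, 81.0, 61.6 and 124 CPM and rose in both states, by 2.47 and 1.01.

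Side by side, and with no test, the 67 genes with a lower difference outside the chromosome 14 cluster had a higher mean in primed saline than in naive saline in 67 of 67 cases, and a higher mean in primed saline than in naive pGal in 38. Over all 14876 genes tested these counts were 8227 and 7938, so that the second count is near the share over all genes. Among the 292 genes called higher in naive cells they were 287 and 139. A higher level in primed saline than in naive saline is thus a trait of genes raised in naive cells, and not particular to the 67. The median of their group means was 10.2 CPM in naive saline, 51.5 CPM in naive pGal, 50.4 CPM in primed saline and 52.9 CPM in primed pGal cells. Naive pGal cells thus lay at the level that primed cells had under saline, on the median over these genes. The median log2 fold change of the 67 genes was 2.38 in naive and 0.12 in primed cells. Of their primed values 38 were above 0, near the share of 53.6% over all genes tested. Since these genes were chosen by the difference, the counts describe them and are no test.

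**Figure D4:**
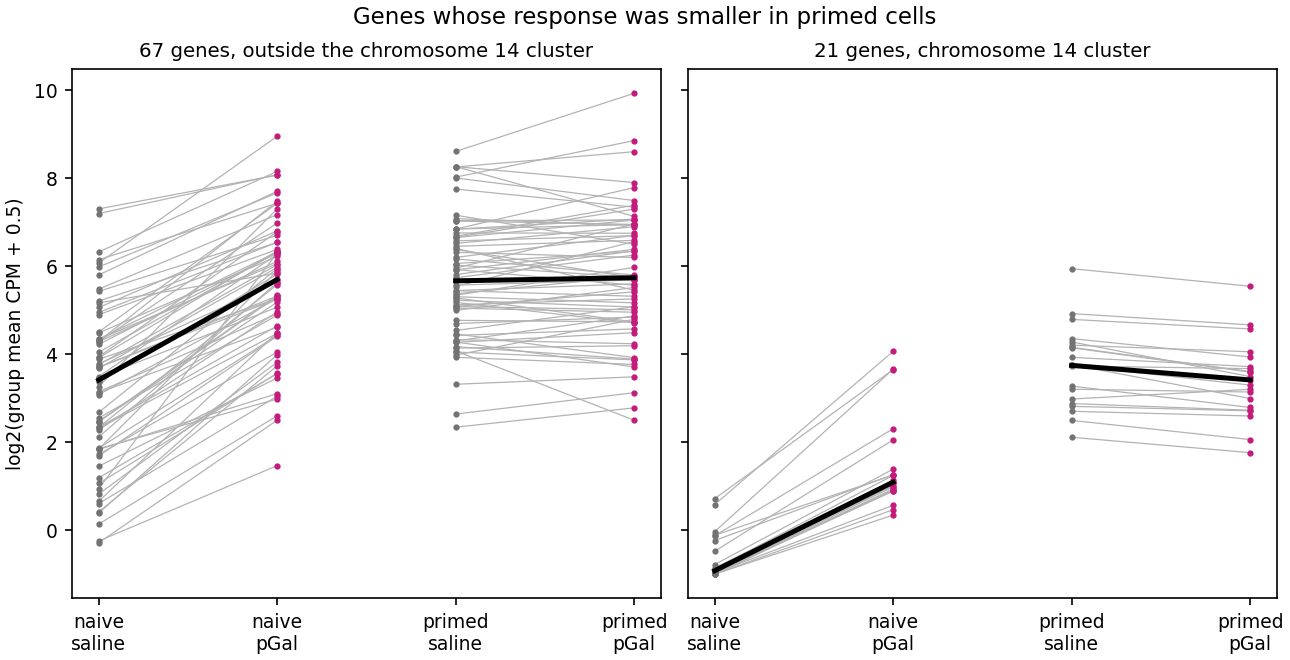
Group means, as log2(CPM + 0.5), of the 88 genes with a lower difference in the 4 groups, split into 67 genes outside (left) and 21 genes inside (right) the chromosome 14 cluster; each thin line is a gene and the thick line joins the medians. Both naive medians climb from saline to pGal. The primed medians of the 67 genes lie close together (50.4 and 52.9 CPM), while single lines rise or fall.

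The cluster holds 21 of the 92 called genes (22.8%) between chr14:3049285 and chr14:7315049, a stretch with 101 genes of the tables of which 44 were tested. All 21 had a lower difference. It was noticed in the results and is described with no test. The genes are poorly characterized predicted genes that resemble each other: a median of 88.3% of the 31-base words in a gene's transcripts also occurred in another of them (32.3 to 100%), so that reads cannot be assigned to single copies with confidence and the sum is the better measure. Summed over the 21 genes, naive saline libraries had 6.06, 4.47, 4.43, 1.55 and 4.99 CPM and naive pGal libraries 72.2, 61.0, 27.7, 110 and 91.7 CPM. Primed saline libraries had a median of 365 CPM (138 to 526.3) and primed pGal libraries 204 CPM (125 to 722). The naive groups did not overlap, the primed groups did, and every primed library was above every naive one. Among single genes tested, complete separation was found in naive cells for 4.97% upwards and 4.6% downwards. In primed cells it was found for 0.0538% and 0.0336%, so that overlap there is not particular to the cluster. The most negative differences among those with at least 10 CPM in a group were those of Gm3500, Gm3252, 2610042L04Rik, Gm3488, Gm3591, Gm8108 and Gm3739. The Gm8108 difference lost its call without batch 2 saline 1 or 2 (-4.72 and -4.70), without the 4 primed libraries rich in mitochondrial transcripts (-4.62) and without the 9 in doubt (-4.77), and the last of these fits also ended the call of Gm3252 (edgeR adjusted p = 0.0722). Gm3500 and Gm3252 had no count in any naive saline library, so that their fitted differences depend on the small count that the fit adds and are no bound. Gm3739, the most abundant of these in naive pGal cells, averaged 0.477, 12.1, 27.2 and 23.3 CPM in the 4 groups.

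The 4 genes with a higher difference were Lmo4, Sostdc1, Tubb2a and Lrrc3b. Lmo4, a LIM-domain cofactor of transcription, fell in every naive pGal library (17.9, 17.4, 19.5, 15.6 and 16.9 CPM after saline; 5.43, 5.53, 11.1, 5.41 and 6.74 CPM after pGal), by 1.35 on the log2 scale. Such complete separation downwards was found for 684 genes in naive cells (4.6% of those tested). The naive call alone was lost without any 1 of 16 libraries (-1.38 to -1.26). In primed cells it went from a median of 7.96 CPM (4.26 to 16.0) to 16.1 CPM (10.7 to 41.0), by 1.03, which was not called alone (edgeR adjusted p = 0.119). The difference was 2.38 ± 0.46 (SE; edgeR adjusted p = 0.00558). Within batch 1 alone it was 2.33 and within batch 2 alone 2.44, neither called. Sostdc1, a secreted antagonist of BMP and Wnt signals, was under 10 CPM in all naive libraries and went from 58.4 ± 20.2 CPM (SD, n = 8) to 156 ± 60.8 CPM (SD, n = 10) in primed cells. Its difference was 3.29 ± 0.70 (SE; edgeR adjusted p = 0.014), with neither response called alone, and was not called without batch 1 pGal 1, batch 1 pGal 2, batch 1 saline 1 or batch 2 saline 2 (2.63 to 3.14), nor within batch 2 alone (2.60). Tubb2a, a beta-tubulin, fell in naive cells from 82.2 to 21.0 CPM and was 24.4 and 19.3 CPM in primed cells (difference 1.72 ± 0.39, not called without batch 1 pGal 1 or 2, batch 1 saline 1 or 3, or batch 2 pGal 2, at 1.52 to 1.72). Within batch 1 alone it was 2.21 and called, and within batch 2 alone 0.98 and not called. The naive change went towards the primed level, as for the genes that rose. Lrrc3b, named although its levels are below 10 CPM, averaged 1.92 CPM in naive saline and at most 0.0753 CPM elsewhere.

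A set of 19 genes was called in both states, all in the same direction: 10 higher and 9 lower. The count rests in part on the 4 libraries labelled OT-I, since of the genes described here the primed calls of Dhrs3, Myb, Maf, Gstt2, Mmd, Ephx1, Il7r, Ly6c1, Tgtp1, Atn1, Epas1, Pik3r5 and Tubb4b were lost without them, each with the same sign. The 19 genes make up 5.19% of the genes called in naive cells and 45.2% of those called in primed cells, and 3 of the 19 had a called difference. Besides those 3 the genes that rose included Dhrs3, Mmd, Gstt2, Maf, Ephx1 and Myb. Dhrs3, which reduces retinal, went from 1.25 to 8.72 CPM in naive and from 2.48 to 11.5 CPM in primed cells, by 2.80 and 2.22. Its primed call was lost without any 1 of 19 libraries (2.07 to 2.28) and its naive call without batch 1 saline 2 or batch 2 saline 2 (2.54 and 2.74). Myb, a transcription factor of progenitor-like T cells, rose from 54.3 to 141 CPM and from 44.1 to 85.0 CPM, without overlap in either state. The genes that fell were Il7r, Ly6c1, Tgtp1, Vps37b, Atn1, Epas1, Pik3r5, Tuba4a and Tubb4b. Il7r, a receptor chain that binds interleukin 7 and keeps resting T cells alive, lay at 257, 272, 286, 242 and 273 CPM in naive saline and at 146, 112, 93.9, 82.1 and 78.5 CPM in naive pGal libraries, and went from a median of 375 CPM (225 to 566) to 177 CPM (91.4 to 331) in primed cells. The naive groups did not overlap and the primed groups did; in primed cells complete separation downwards was found for 5 genes (0.0336%), among them Vps37b. Its log2 fold changes were -1.40 ± 0.27 and -1.04 ± 0.20 (SE; edgeR adjusted p = 0.00199 and 0.0118), and their difference was 0.36 ± 0.33. Without the 4 libraries labelled OT-I the primed change was -0.93 (edgeR adjusted p = 0.0926). Ly6c1, a GPI-anchored surface antigen, fell from 448 to 23.9 CPM in naive cells. In primed cells it was low throughout, 6.69 CPM after saline and 1.89 CPM after pGal, a fall of 1.84 on the log2 scale that was not called without any 1 of 8 primed libraries (-1.80 to -1.47). Its difference of 2.47 was not called (edgeR adjusted p = 0.106), but it was without the 4 primed libraries rich in mitochondrial transcripts (2.50; edgeR adjusted p = 0.00813), without the 9 in doubt (3.02; edgeR adjusted p = 0.0093) and without the library labelled OT-II saline 1 (2.81). Atn1, a transcriptional corepressor, lost its primed call without any 1 of 4 primed libraries (-1.16 to -1.09). Tgtp1, an interferon-induced GTPase, fell from 471 to 122 and from 136 to 63.3 CPM.

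**Figure D5:**
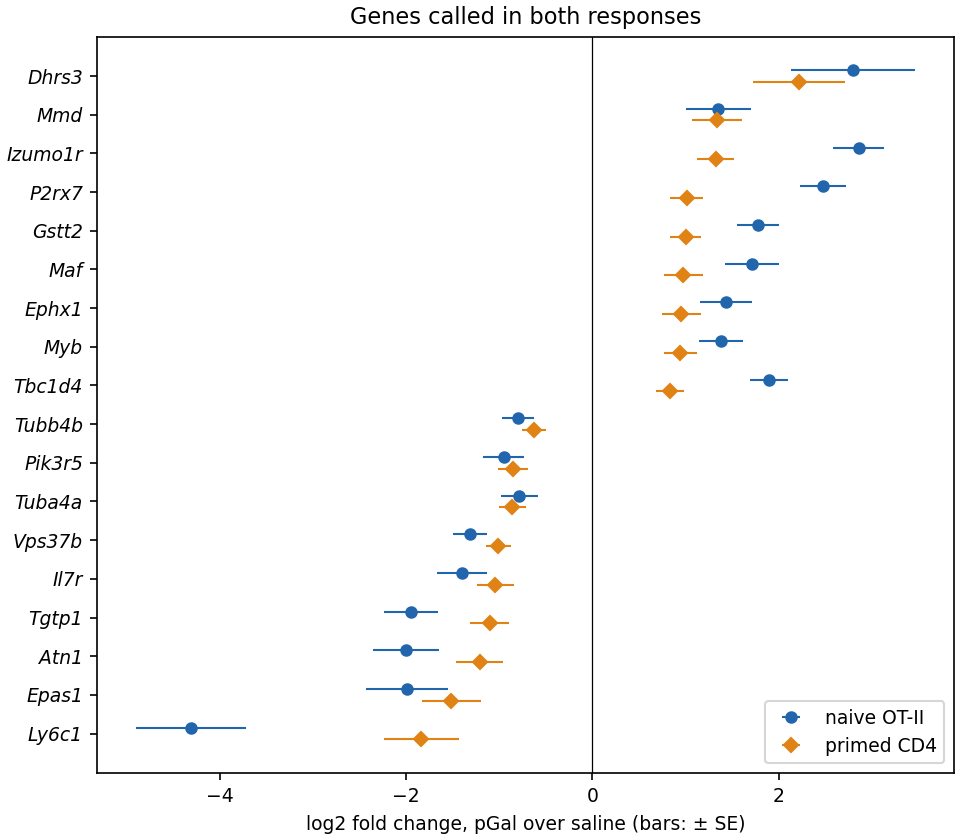
Log2 fold change of pGal over saline with its SE for 18 of the 19 genes called in both naive OT-II cells (blue circles) and primed CD4 cells (orange diamonds). The 9 genes shown that rose and the 9 that fell do so in both states, and the naive value is farther from 0 for most of them, with Izumo1r, P2rx7 and Tbc1d4 differing by the test.

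Of 18 genes of naive and memory cells, 5 fell in naive cells (Il7r, Satb1, Ly6c1, Ccr9 and Dntt), 1 rose (Dapl1) and 3 fell in primed cells (Il7r, Klf2 and Ly6c1), with no called difference. Over all genes tested the shares were 0.497% and 1.96% in naive cells and 0.155% in primed cells. Dntt, the terminal transferase of developing thymocytes, fell from 74.95 to 3.68 CPM in naive cells and was at most 1.32 CPM in any primed library. The naive saline (68.7 to 79.2 CPM) and naive pGal libraries (2.31 to 6.13 CPM) did not overlap. Its naive call, from a fit that shares 1 spread with the primed libraries, was lost without any 1 of 4 naive libraries (-4.47 to -4.31). Pdlim4, an actin-associated LIM protein and another of the largest naive falls, went from 40.4 to 3.65 CPM and was 1.48 and 0.826 CPM in primed cells. In naive cells its saline (32.9 to 48.6 CPM) and pGal libraries (2.14 to 6.255 CPM) did not overlap. Its naive call was lost without batch 1 pGal 1, batch 2 pGal 1 or batch 2 pGal 2 (-3.49 to -3.36). Its difference of 2.67 was not called, though it was without the 9 libraries in doubt (3.28; edgeR adjusted p = 0.0416). Satb1, a chromatin organizer of naive T cells, fell from 1268 to 621 CPM in naive cells and was 585 and 408 CPM in primed cells, where the change of -0.52 was not called. Tcf7, the factor of self-renewing T cells, changed in neither by the test (2478 and 2670 CPM in naive, 1500 and 1870 CPM in primed cells). Of 15 heat shock genes tested, 4 fell in primed cells (Hspa8, Hsp90ab1, Hspe1 and Dnajb1) and none was called in naive cells, while none had a called difference. All 15 primed values were below 0, whereas 53.6% of all genes tested were above 0 and 0.155% were called lower in primed cells. Dnajb1, a cochaperone, went from 976 to 427 CPM in primed cells (-1.19) and from 528 to 246 CPM in naive cells (-1.10, edgeR adjusted p = 0.0549), so the call in 1 state alone does not show a difference. H2-Q2, a class Ib histocompatibility gene with close relatives to which reads may be misassigned, rose in primed cells from a median of 14.7 CPM (6.91 to 29.7) to 52.7 CPM (31.7 to 106), without overlap, as for 0.0538% of genes tested. The rise of 1.94 was not called without the 4 libraries labelled OT-I (1.91, edgeR adjusted p = 0.0727). In naive cells H2-Q2 averaged 1.49 and 2.55 CPM, and the change of 0.79 was not called. Its difference of 1.15 ± 0.67 (SE) was not called (edgeR adjusted p = 0.965). It was 2.43 within batch 1 alone and -1.02 within batch 2 alone. Mitochondrially encoded genes were above 0 in all 13 cases in both states (median 0.81 in primed and 0.45 in naive cells), with none called. Over all genes tested 53.6% were above 0 in primed and 52.7% in naive cells. The 4 primed libraries rich in mitochondrially encoded transcripts are listed above. Without those 4 libraries 100 differences were called, 76 of them shared. The other lists gave no called difference in the fit of all 28 libraries. Without the 4 libraries labelled OT-I 1 interferon-stimulated gene, Oas1a (-1.03), and 1 naive and memory gene, Dapl1 (-2.21), were called lower in primed cells, Tk1 (-2.47) took the place of Top2a among proliferation genes, and the anergy and survival lists had 2 calls in place of 3. These 3 genes are named after their values were seen. The medians of the other lists in the difference, against 0.01 over all genes, were -0.30 for 25 homing and adhesion genes, -0.32 for 27 interferon-stimulated genes, 0.14 for 21 cholesterol synthesis genes and -0.26 for 15 glycolysis genes. Among markers of other cells they were -0.62 for 17 myeloid, -0.92 for 11 NK, 0.77 for 10 erythroid and platelet and 0.04 for 8 stromal genes, and among lineage markers -0.79 for 8 CD8 and -0.31 for 6 CD4 genes. Without the 2 naive libraries rich in B cell transcripts the sign changed for myeloid (0.69), NK (0.52) and CD8 genes (0.59). In that fit erythroid and platelet genes had 1.57, stromal genes -0.003 and CD4 genes -0.41.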

How the data were processed

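RNA of sorted CD4 T cells was measured in 28 libraries. The submitters' processing notes name bcl2fastq, kallisto 0.46.1 and the mouse build GRCm38. The deposited tables hold estimated counts per gene as whole numbers. The sources used here do not say how these whole numbers were obtained. In all, the tables share 21823 genes (77 left out). Of these, 14876 passed filterByExpr, and all were found in GENCODE M21.

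With edgeR 4.0.16 in R 4.3.3 (TMM scaling, robust quasi-likelihood fit, residual df 23), 1 model held the 4 groups and 3 batch levels, and gave both responses and their difference, with Benjamini-Hochberg adjustment over all genes and a threshold of 0.05. DESeq2 1.42.0, limma 3.58.1 (voom), other scalings, filters, library sets, the replicate number as a block and leaving out each library were alternatives. The p-values measure the spread between libraries. No libraries agreed within sampling noise. On simulated counts of 14604 genes, 97% of 66 differences of 8-fold were recovered, with 5 false among 129 calls.

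Members and lists were chosen with earlier results of these data known. Named genes were the 8 most positive and most negative called differences with at least 10 CPM in a group (3 qualified as positive), the 3 highest and lowest per response, up to 4 called members per list, and a panel of 23 genes; 1 gene under the rule and 1 other are not reported here; others are said to be named after their values were seen. The total per library, 21150702 to 62252836 counts, sets the counting error only, since amplified reads carry no molecular identifiers.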

Additional observations from a re-analysis of the deposited data

Results flagged for a closer look

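A single library stood apart from the rest of its group in 17 of the 206 gene and group pairs examined over the 52 named genes. A library counted where its gap to the nearest other one, as a share of the group's range of log2(CPM + 0.5), was above Dixon's 95% critical value, and chance alone gives about 1 in 20. The library labelled OT-I pGal 7 accounted for 4 of these pairs. It held Synpo at 29.2 CPM, Lag3 at 0.665 CPM and Dhrs3 at 0.732 CPM, each the lowest of the primed pGal group, and the cluster gene Gm3591 at 0.266 CPM. In the same group the library labelled OT-I pGal 5 held 2610042L04Rik at 2.45 CPM, and OT-II pGal 9 held Bcl2a1d at 22.4 CPM and Izumo1r at 353 CPM. The library labelled OT-II pGal 10 held Gm3252 at 49.3 CPM. Among primed saline libraries OT-II saline 7 held Satb1 at 351 CPM.

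In naive cells batch 1 pGal 3, the library rich in B cell and myeloid transcripts, held Tox at 116 CPM and Tcf7 at 1797 CPM, and batch 2 pGal 1 held Mki67 at 54.2 CPM. Among naive saline libraries batch 2 saline 1 held Wnt10a at 3.20 CPM. The other 4 pairs were cluster genes near 0 in naive saline: batch 1 saline 1 held 2610042L04Rik at 0.0594 CPM and Gm8108 at 0.178 CPM, and batch 1 saline 2 held Gm3488 at 0.101 CPM and Gm3591 at 0.0506 CPM.

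The response to pGal differed between primed and naive cells by edgeR's test for 26 of the named genes, with 23 log2 differences below 0 and 3 above. Outside the chromosome 14 cluster the most negative were Wnt10a at -6.62, Synpo at -3.81, Ctla4 at -3.19 and Ebi3 at -3.16. Il2 had -2.76, Spry1 -2.45, Bcl2a1d -2.40, Cd200 -2.22, Capg -2.17, Cxcr5 -2.12, Top2a -2.09, Rgs1 -2.09 and Tnfsf14 -2.01. Bcl2a1b had -1.99, Irf4 -1.93 and Izumo1r -1.54. The 3 higher differences were 3.29 for Sostdc1, 2.38 for Lmo4 and 1.72 for Tubb2a. Within the cluster the fitted differences were -6.93 for 2610042L04Rik, -6.59 for Gm3488, -6.13 for Gm3591, -5.17 for Gm8108 and -4.80 for Gm3739. Those of Gm3500 (-9.09) and Gm3252 (-7.90) rest on a naive saline group with no count, so that they depend on the small count that the fit adds and are no bound.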

How the results depend on the processing

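For the difference, other scalings, filters and settings gave counts near the 92 (90 with RLE factors, 97 with upper quartile factors, 82 without a low-count filter, 88 at a mean of at least 10 CPM, 91 without robust dispersion, 95 with the prophylactic batches as 1 level). DESeq2 gave 195 (92 shared) and limma voom 168 (89 shared). Taking therapeutic libraries as labelled OT-II gave 48, and batch 1 or batch 2 alone 40 and 34. Leaving out 1 library gave 72 to 112. Naive calls, 366 as reported, were 235 to 441 without 1 library, 635 with DESeq2, 1779 with limma voom, 1679 with each experiment fitted separately (which gives no difference), 237 as labelled, and 121 and 79 within the batches. Primed calls, 42 as reported, were 26 to 67 without 1 library, 195 with DESeq2, 18 with limma voom, 19 fitted separately, 21 without the 4 libraries labelled OT-I, 0 as labelled, and 98 at 10 CPM or more. They were 27 and 17 in the fits with prophylactic batch 1 or batch 2 alone, which drop naive libraries only and keep all the primed ones. Chosen after seeing the data, the fits without the B-rich, the mitochondria-rich or all 9 libraries in doubt gave 81, 100 and 126 differences, 243, 602 and 674 naive calls, and 52, 34 and 19 primed calls. With replicate numbers as a replicate block, the difference had 68 calls (59 shared) and the primed response 27 (18 shared). Of the named differences Spry1, Tnfsf14, Top2a, Cxcr5, Tubb2a, Il2 and Ebi3 were not called in that fit (edgeR adjusted p from 0.0706 to 0.164). The correlations do not settle whether the numbers pair the libraries: over 13 pairs r ran from -0.473 to 0.469, 8 were above 0.1, and 7 correlated best with their own number. All 26 named differences kept their direction in every fit and 6 their call. Only uncalled differences changed sign: Dnajb1 was 0.15 as labelled, 0.10 without the B-rich libraries, 0.19 without all in doubt and -0.21 to 0.10 without 1 library. Bcl6 was -0.31 in batch 1, -0.014 with the block and -0.12 to 0.32 without 1 library. In batch 2 H2-Q2 was -1.02, Il21 -0.67 and Nt5e -0.019, and without all in doubt Foxp3 was 0.12 and Tcf7 -0.040. The cause of these changes was not tested. No scaling or filter moved the median over all genes by more than 0.0824 on the log2 scale. Simulated differences of 2-fold were recovered in 14.9% of cases, those of 4-fold in 74.6%, at the same spread in both experiments and in genes with a mean of at least 10 CPM.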

Other observations

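Some genes called in primed cells belong to none of the lists, and the following were chosen after their values were seen. Srm, which makes spermidine, fell from 60.8 ± 12.5 to 31.2 ± 7.5 CPM in primed cells (SD, n = 8 and 10; edgeR adjusted p = 0.00706), and Nolc1, a nucleolar phosphoprotein, from 152 ± 27.0 to 93.2 ± 22.6 CPM (edgeR adjusted p = 0.0262; 0.0518 without the 4 libraries labelled OT-I). Both were lower in every primed pGal library than in any primed saline library, as were 5 of the 14876 genes (0.0336%). In naive cells the same genes were at 68.6 and 50.3 CPM, and at 121 and 92.4 CPM, with no call, and the differences of -0.49 and -0.32 were not called. Cers4, a ceramide synthase, rose from 52.0 to 106 CPM in primed cells without overlap (edgeR adjusted p = 0.00706), against 34.8 and 41.0 CPM in naive cells, and its difference of 0.79 ± 0.30 (SE; edgeR adjusted p = 0.489) was not called. Art2b, an ADP-ribosyltransferase of the T cell surface, rose from 32.3 to 80.8 CPM in primed cells (edgeR adjusted p = 0.0118) and was 65.0 and 121 CPM in naive cells. Matk, a kinase that inhibits SRC family kinases, rose from 99.1 to 205 CPM in primed cells (edgeR adjusted p = 0.0245; 0.139 without the 4 libraries labelled OT-I) and was 31.4 and 45.1 CPM in naive cells.

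The saline number 6 occurs on a library labelled OT-I and on one labelled OT-II, both members by their Cd4 count. Over genes their log2 CPM correlated at 0.913, within the range of other pairs of the group. This correlation cannot tell whether they come from the same mouse, which is not stated. Both met the rule on Cd4 and Cd8a and were kept as separate libraries. If they share a mouse, the 8 primed saline libraries are not all independent.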
